A study of Brassica oleracea var. italica with 2 samples.

Results

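In plants, microRNAs (miRNAs) are cut from stem-loop precursors by the Dicer-like enzyme DCL1 and then guide Argonaute proteins to matching mRNAs. In Arabidopsis, 3 conserved families act on mRNAs of the small RNA machinery. miR162 targets the mRNA of DCL1 itself, miR168 targets the mRNA of AGO1, the main Argonaute of plant miRNAs, and miR403 targets the mRNA of AGO2, an Argonaute known from antiviral defence. Each family therefore acts on the mRNA of a protein that makes or uses small RNAs. The records of these 3 families in broccoli shoot apexes are described here.

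The members were all records of the deposited table of known plant miRNAs named miR162, miR168 or miR403, whatever the species prefix, the letter or the star. The table held 21 such records, of which 5 had raw read counts, against 169 records with counts among 1400 in all. The counts come from 2 small RNA libraries, 1 per genotype, from shoot apexes of the heat-tolerant (HT) and the heat-sensitive (HS) broccoli, which are nearly isogenic lines that differ in their capacity to form curds at high temperature. Per the labels the plants were 54 days old and had 18 h light and 6 h dark, and both libraries come from plants kept at 22 °C, and the labels give no other difference between the groups than the genotype. The text of the paper gives other ages at sampling. No library of another temperature was used here. No replicate exists within a genotype, so every p-value compares these libraries and measures counting error only, not the spread between plants. Levels are given in TPM, the reads of a record scaled to all reads of its library. The library sizes, 27069903 reads in HT and 26253036 in HS, were recovered from the deposited counts and TPM values. The 95% intervals (CI) are exact (Clopper-Pearson). They hold counting error alone and treat reads as independent. Reads amplified by PCR and not tagged by molecule are not independent, so the intervals can be too narrow and the p-values too small. The tables hold no mRNA, so neither the markers of the shoot apex nor the mRNAs of DCL1, AGO1 and AGO2 could be examined.

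The sequences of the 5 counted records show which arm or strand each count stands for. They are written as in the table, with T for U, 5′ to 3′, with the seed (bases 2 to 8) in capitals. The prefix names the species of the miRBase entry that the broccoli reads matched (bdi for Brachypodium distachyon, csi for Citrus sinensis, aau for Acacia auriculiformis, osa for Oryza sativa and aly for Arabidopsis lyrata), and a star marks the partner strand of the mature miRNA in the duplex.
bdi-miR162: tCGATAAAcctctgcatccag
csi-miR162*: tGGAGGCAgcggttcatcgatc
aau-miR168: aTTCAGTTgatgcaaggcgggatc
osa-miR168a-3p: gATCCCGCcttgtatcaagtgaat
aly-miR403*: tGTTTTGTgcgtgaatctaatt

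No seed was shared between the 3 families, and no record outside them carried any of these seeds. The bdi-miR162 record has 21 nt, csi-miR162* and aly-miR403* have 22 nt, and both miR168 records have 24 nt. Records of 24 nt were few, 5 of the 169 with counts (2.96%), and the miR168 records held 78 of the 81 reads of this length in HT and 56 of the 64 in HS. Of the 5 members, 3 begin with T, as did 53.8% of all counted records. Compared with the miRBase entry, with positions counted from the 5′ end, bdi-miR162 carries G20A, aly-miR403* carries C15A and osa-miR168a-3p carries C13T and C15T. With G20A, the counted miR162 sequence equals that of the Arabidopsis entry ath-miR162a. The csi-miR162* and aau-miR168 records have no difference.

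The other 16 records had no count, and they include the sequences best known for each of the miR168 and miR403 families. They are shown because the counts of these families come from other strands.
ath-miR168a: tCGCTTGGtgcaggtcgggaa
osa-miR168a: tCGCTTGGtgcaggtcgggac
aly-miR168a*: cCCGCCTTgcatcaactgaat
ath-miR403: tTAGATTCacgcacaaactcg

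By seed, the mature miR162 group (CGATAAA) held 4 records, 1 of them counted, whereas the mature miR168 group (CGCTTGG) held 6 records and the mature miR403 group (TAGATTC) held 2, none with a count. Of the 16 uncounted records, 2 (ath-miR162a and osa-miR162b) had the sequence of the counted bdi-miR162, so reads of that sequence were present although these records list none. The remaining uncounted records carried 10 distinct sequences for which no record of the table gave reads. A missing count in this table is no measurement of 0, and no level of mature miR168 or mature miR403 can be given from it. The families thus rest on 2 counted records for miR162, 2 for miR168 and 1, the star strand, for miR403.

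Positions refer to the B. rapa genome sequence, version 1.1, which the authors used for broccoli reads, and all 21 records matched it without a mismatch. The records fell into 7 loci, 5 of which had a counted record. The bdi-miR162 record lies on chromosome A03 from 21017684 to 21017704 (plus strand), while csi-miR162* lies on chromosome A02 from 2629920 to 2629941 (minus strand). The A02 locus also lists the mature sequence, from 2629835 to 2629855, 64 nt from the star, and 17 of 20 aligned bases of ath-miR162a and csi-miR162* could pair. The miR162 reads can therefore belong to either locus. The aly-miR403* record lies on chromosome A05 from 266490 to 266511 (minus strand), in the 5′ arm, with the uncounted ath-miR403 36 nt away in the 3′ arm and 18 of 20 aligned bases paired, G:U pairs included. For miR168, both arms are listed on chromosome A03, osa-miR168a from 23663761 to 23663781 and aly-miR168a* from 23663831 to 23663851, 49 nt apart, and neither had a count. No annotation of the genes around these positions was used here.

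**Figure D1:**
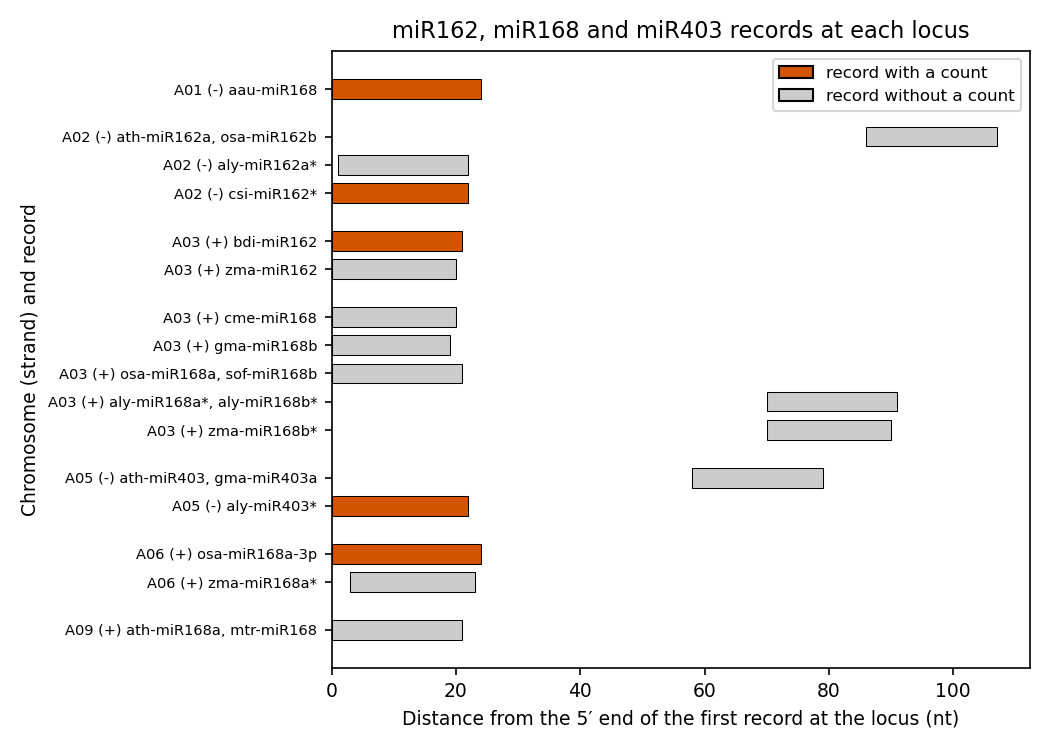
Map of the 21 records of miR162, miR168 and miR403 at their 7 loci, with the distance in nt from the 5′ end of the first record at each locus on the x axis and the chromosome (strand) and record on the y axis. The 5 counted records (orange) and the uncounted ones (grey) show that the star of miR403 and not its mature strand was counted, and that no record of the paired miR168 arms on A03 had a count.

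The counted miR168 records lie elsewhere. The osa-miR168a-3p record, on chromosome A06 from 25071595 to 25071618 (plus strand), has the sequence type of the 3′ arm (star) and contains the uncounted zma-miR168a* whole. The aau-miR168 record, on chromosome A01 from 5386196 to 5386219, is read from the minus strand. Its reverse complement contains the whole of aly-miR168a* (21 nt, in capitals in the first line) and differs from osa-miR168a-3p at 2 of 24 positions (in capitals in the second line).
aau-miR168, reverse complement: gatCCCGCCTTGCATCAACTGAAT
osa-miR168a-3p: gatcccgccttgTatcaaGtgaat

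The differences, from the reverse complement of aau-miR168 to osa-miR168a-3p and counted from the 5′ end, are C13T and C19G. The longest run that aau-miR168 shared with mature ath-miR168a was 5 nt on the same strand and 4 nt in the reverse complement. By sequence, the counted miR168 records were thus a star-type strand and a strand complementary to the star, and neither was the mature miR168.

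miR162 was the most abundant of the members and the only 1 past p under 0.001 between the libraries. The bdi-miR162 record had 711 reads in HT (26.3 TPM, 95% CI 24.4 to 28.3) and 1321 reads in HS (50.3 TPM, 95% CI 47.6 to 53.1). The intervals of the libraries did not overlap, and HS was the higher. The level was 1.92-fold lower in HT (95% CI 1.75 to 2.10, fold change HT/HS 0.522, log2 -0.94, p = 1.69e-46, two-sided Fisher's exact test, Benjamini-Hochberg adjusted p = 3.58e-45 over all 169 records). In bulk tissue, fewer cells that make a miRNA and less of it per cell cannot be told apart. Among the 169 records the level of bdi-miR162 ranked 16 in HT and 7 in HS. Its share of the reads of all 169 counted records was 1.85% in HT (95% CI 1.72 to 1.99) and 4.62% in HS (95% CI 4.38 to 4.87). The paper lists many more known miRNA reads in each library, so these are not shares of all known miRNA reads. Some of the 169 records share a sequence, so their total can hold the same reads more than once.

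The rule applied to all records asked for p under 0.001 together with more than a 2-fold difference, higher or lower. By it, 0 of the 5 members were called, against 21 of all records (12.4%), with 14 above and 7 below their HS level. The difference of bdi-miR162, 1.92-fold, was under the fold threshold. Without a fold threshold, 1 of 5 members was called, lower in HT, against 20.1% of all records called in either direction and 6.51% called lower. Among the 69 records with at least 50 reads, 46.4% were called in either direction and 13% lower, against 1 of 4 members. At an unadjusted p under 0.05 without a fold threshold, 2 of 5 members passed (bdi-miR162 and aau-miR168), against 33.1% of all records. With the libraries scaled by the sum of the deposited counts of all counted records, the difference in miR162 became 2.50-fold (95% CI 2.28 to 2.74). It was then called, as were 5.33% of all records in that direction. The same held for scaling by a median of ratios (2.39-fold) and by a trimmed mean of log2 ratios (2.27-fold), with 5.33% and 4.73% of all records called lower. In either direction, 10.7%, 11.2% and 11.8% of all records were called under the 3 scalings, in this order, with 9 higher and 9 lower, 10 and 9, and 12 and 8.

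**Figure D2:**
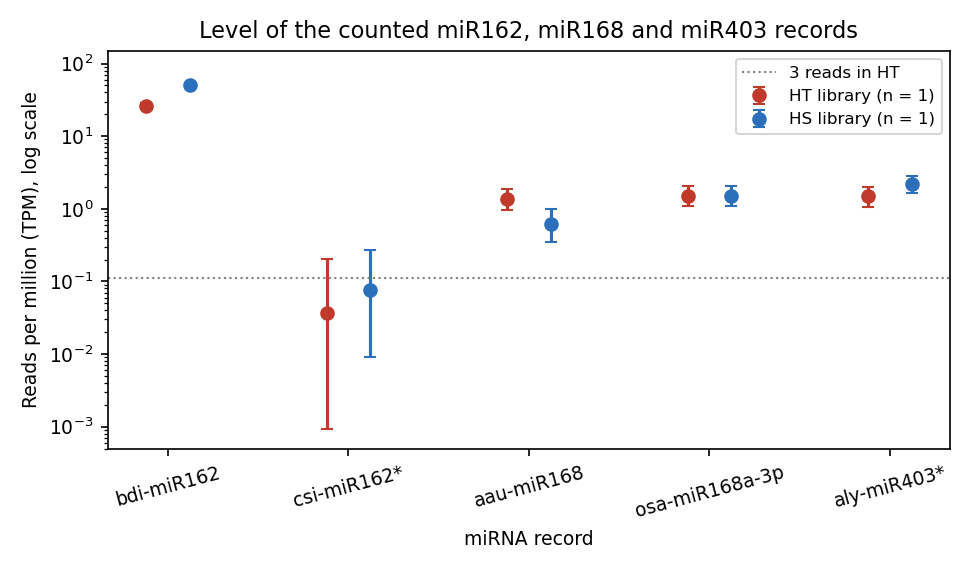
Level (TPM, log scale) of each counted record in the HT (red) and HS (blue) libraries, 1 library each, with exact 95% intervals for counting error. The dotted line marks 3 reads in HT. The bdi-miR162 record stands at 26.3 TPM in HT and 50.3 TPM in HS, well above the others, and csi-miR162* lies below the line in both libraries.

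The only counted star record of miR162 had few reads. The csi-miR162* record had 1 read in HT and 2 in HS, under the floor of 3 reads (0.111 TPM in HT and 0.114 TPM in HS), so no fold change is given. Of the reads of csi-miR162* and bdi-miR162 together, csi-miR162* made up 0.140% in HT (95% CI 0.00356 to 0.780) and 0.151% in HS (95% CI 0.0183 to 0.545). These intervals overlap. A shorter star record of the same locus, aly-miR162a*, had no count, so no level of the star as a whole can be given. The bdi-miR162 record is placed on another chromosome than csi-miR162*, but its reads can belong to either miR162 locus. These shares can therefore not be read as a comparison of the arms of 1 hairpin. Summed, the miR162 family held 712 reads in HT and 1323 in HS and ranked 12 in HT and 5 in HS among the 59 miRNA numbers with counts. The sums of other numbers can hold the same reads more than once, as some records share a sequence, so these ranks are approximate.

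The star of miR403, by contrast, was among the more abundant star records. The aly-miR403* record had 40 reads in HT (1.48 TPM, 95% CI 1.06 to 2.01) and 57 in HS (2.17 TPM, 95% CI 1.64 to 2.81). The value was higher in HS, but the intervals overlap. The fold change HT/HS was 0.681 (95% CI 0.443 to 1.04, p = 0.0674, Fisher's exact test, Benjamini-Hochberg adjusted p = 0.187), and this test did not separate the libraries. Among 51 star records its level ranked 10 in HT and 9 in HS, and the median level of these records was 0.148 TPM for HT and 0.152 TPM for HS. The test depends on the scaling. With the sum of the deposited counts the fold change was 0.522 (95% CI 0.339 to 0.796), with the median of ratios 0.546 (95% CI 0.355 to 0.833) and with the trimmed mean 0.575 (95% CI 0.374 to 0.876). Fisher's exact test gave p = 0.00190, 0.00393 and 0.00772 in this order, none under 0.001.

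The miR168 records differed from each other. The aau-miR168 record had 37 reads in HT (1.37 TPM, 95% CI 0.962 to 1.88) and 16 in HS (0.609 TPM, 95% CI 0.348 to 0.990), and HT was the higher. Its fold change HT/HS was 2.24 (95% CI 1.22 to 4.32, p = 0.00577, Fisher's exact test, Benjamini-Hochberg adjusted p = 0.0239), past an adjusted p of 0.05, as were 27.2% of all records (20.1% higher in HT), but not past p under 0.001. Scaled by the sum of the deposited counts, the fold change was 1.72 (p = 0.0715, Fisher's exact test). It was 1.80 (p = 0.0523) with the median of ratios and 1.89 (p = 0.0374) with the trimmed mean, both by Fisher's exact test. This difference thus depends on the scaling.

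The osa-miR168a-3p record had 41 reads in HT (1.51 TPM, 95% CI 1.09 to 2.05) and 40 in HS (1.52 TPM, 95% CI 1.09 to 2.07). With all reads of the library as size, the libraries were nearly level, with a fold change of 0.994. Its interval of 0.627 to 1.58 leaves room for differences of up to about that size in either direction. The fold change was 0.762 with the sum of the deposited counts, 0.798 with the median of ratios and 0.840 with the trimmed mean. The sum of both miR168 records was 78 reads for HT and 56 for HS. The fold change of this sum was 1.35 (95% CI 0.946 to 1.94, p = 0.100 by Fisher's exact test). Under the other scalings, in the same order, it was 1.04, 1.08 and 1.14. This sum adds reads from opposite strands of star-type sequences and gives no level of mature miR168.

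**Figure D3:**
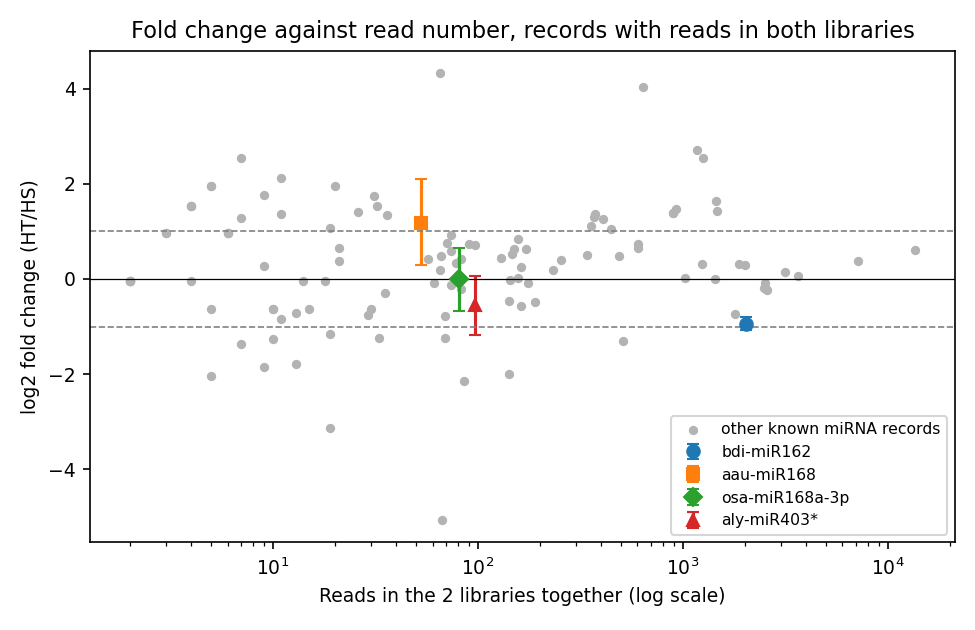
The log2 fold change (HT/HS) against the reads in the 2 libraries together (log scale) for the 119 counted records with reads in both libraries, except csi-miR162*, which is under the floor and not drawn. The other members are coloured, with exact 95% intervals for counting error, records of other miRNAs are grey, and dashed lines mark a fold change of 2 in either direction. The bdi-miR162 record lies close to the lower line at -0.94 with a narrow interval, whereas the other members have few reads and wide intervals.

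The 69 records with 50 reads or more over both libraries had a median log2 fold change of 0.37, with 46 higher and 23 lower in HT. The 4 members among them had a median of -0.28, with 3 lower in HT and 1 higher. These medians and splits use all reads of the library as size. The other scalings shift every log2 fold change by -0.38, -0.32 or -0.24, so the medians and the split of the 69 depend on the scaling. The places below do not. Some of the 69 records also share a sequence. From the lowest fold change upward, bdi-miR162 stood at place 6, aly-miR403* at 10, osa-miR168a-3p at 22 and aau-miR168 at 57 of the 69. The direction of osa-miR168a-3p is not resolved by its interval.

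The difference between fold changes of 2 members does not depend on the scaling of the libraries, so the 6 pairs of the 4 members with at least 10 reads were compared, with p-values adjusted over these pairs and exact conditional intervals of the ratio. Of these pairs, 4 differed at an adjusted p under 0.05. Pairs of other records were not compared, so this count has no background and is not shown to be particular to the members. The fold change of aau-miR168 was 4.30-fold that of bdi-miR162 (95% CI 2.31 to 8.33, Fisher's exact test, Benjamini-Hochberg adjusted p = 3.50e-06). It was 3.30-fold that of aly-miR403* (95% CI 1.53 to 7.21, Fisher's exact test, adjusted p = 0.00330). The fold change of osa-miR168a-3p was 1.90-fold that of bdi-miR162 (95% CI 1.19 to 3.05, Fisher's exact test, adjusted p = 0.0123). Thus bdi-miR162 was lower in HT relative to each miR168 record, whatever the library size.

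The miR168 records of opposite strand also differed from each other, with the fold change of aau-miR168 2.26-fold that of osa-miR168a-3p (95% CI 1.03 to 5.04, Fisher's exact test, adjusted p = 0.0486), close to the threshold. The fold changes of aly-miR403* and bdi-miR162 were not separated (ratio 1.30, 95% CI 0.839 to 2.01, Fisher's exact test, adjusted p = 0.232), nor were those of osa-miR168a-3p and aly-miR403* (ratio 1.46, 95% CI 0.773 to 2.76, Fisher's exact test, adjusted p = 0.232). These intervals reach 2.01 and 2.76, so they do not show that the records behave alike.

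**Figure D4:**
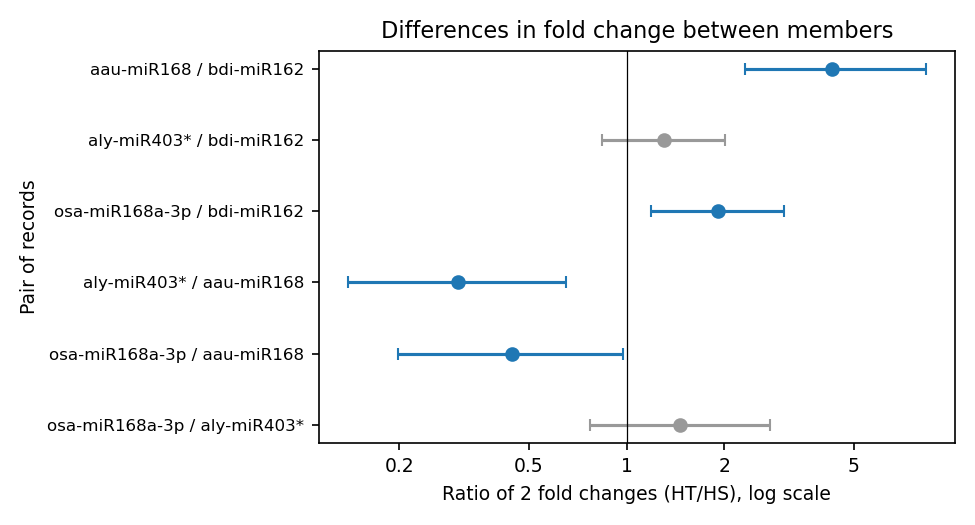
Ratio of the fold changes (HT/HS) of 2 members (x axis, log scale) for the 6 pairs of members with at least 10 reads (y axis), with exact 95% intervals for counting error; blue marks an adjusted p under 0.05 and the vertical line a ratio of 1. The intervals of the 3 pairs with aau-miR168 and of osa-miR168a-3p with bdi-miR162 exclude 1. That of osa-miR168a-3p over aau-miR168 does so narrowly (ratio 0.443, 0.198 to 0.973). This ratio and that of aly-miR403* over aau-miR168 (0.303) are drawn as the inverse of the values in the text.

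**Figure D5:**
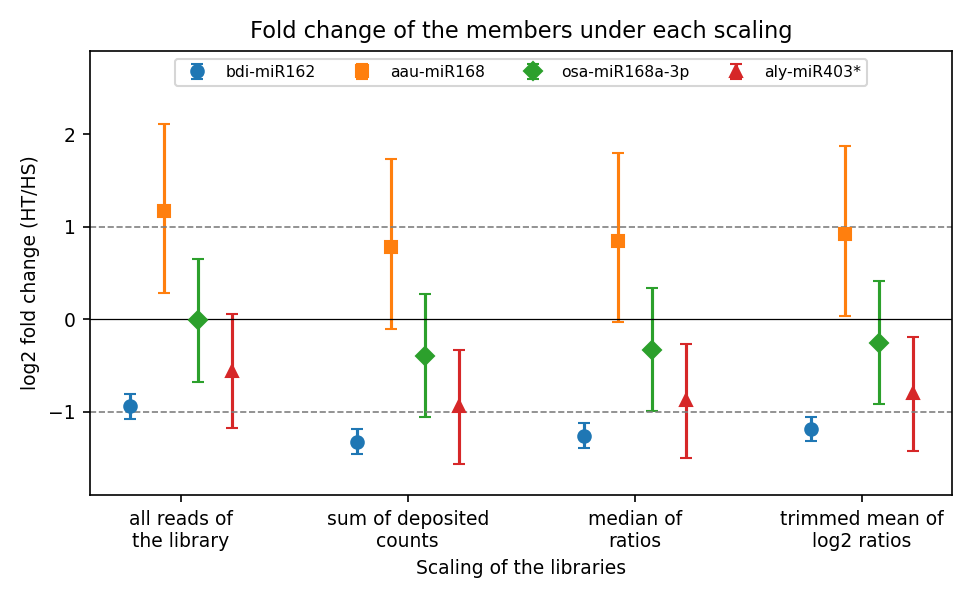
The log2 fold change (HT/HS) of the members with at least 10 reads under 4 scalings of the libraries, with exact 95% intervals for counting error and dashed lines at a fold change of 2 in either direction. The bdi-miR162 record lies at -0.94 with all reads of the library as size and below -1 under the 3 others, and aau-miR168 lies above 0 under each scaling, with an interval that reaches 0 under the sum of deposited counts and the median of ratios.

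Over the 2 libraries, the records nearest to bdi-miR162 in log2 fold change, among the 69 with at least 50 reads, were bdi-miR5054 (26 reads in HT and 43 in HS, a difference of 0.17), bna-miR397a (688 and 1106 reads, 0.21) and zma-miR166k* (21 and 48 reads, 0.30). Of these, bna-miR397a, which belongs to a family that targets laccase mRNAs in Arabidopsis, has a read number of the same order as bdi-miR162. Nearest to aly-miR403* were vvi-miR319e, aly-miR824* and gma-miR319d, the last at a difference of 0.102. Nearest to osa-miR168a-3p were ath-miR824, aly-miR166b* and gma-miR319c, the last at a difference of 0.0195. The aau-miR168 record was nearest to ptc-miR156k, bna-miR156a and ptc-miR169s, the last at a difference of 0.117. Likeness over 2 libraries is a description of these fold changes only.

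In all, the members held 830 of the 38431 reads of all counted records in HT (2.16%, 95% CI 2.02 to 2.31) and 1436 of 28582 in HS (5.02%, 95% CI 4.77 to 5.28). The totals of all counted records can hold the same reads more than once, because some records share a sequence. The bdi-miR162 record made up 85.7% of the members' reads in HT and 92.0% in HS, so their sum follows miR162 and says little of miR168 and miR403.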

How the data were processed

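The authors made 1 small RNA library of shoot apexes for each genotype. To make the table, the authors kept reads of 16 to 31 nt, discarded those matching other non-coding RNAs with BLASTN and matched the rest to plant miRNAs with fewer than 2 mismatches. The deposited notes name miRBase release 19, the table header release 18, and the paper a later one. Matches with 2 differences, such as osa-miR168a-3p, nevertheless stand in the table. Raw counts were used as deposited. The deposited TPM values, computed by the authors, served only to recover the library sizes (raw count divided by TPM). Columns with the authors' own fold changes, p-values and q-values were not used. The line breaks quoted in the header led to the unit "other" in the record of units, and no count model was fitted, since 1 library per genotype gives no spread.

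For each record, its reads and all other reads of both libraries formed the 2 by 2 table of Fisher's exact test, two-sided (SciPy 1.17.1, Python 3.11.15). The code was run on simulated Poisson counts. These hold counting error only, so that run does not show how the test behaves with spread between plants or PCR duplicates. All member records were named, and for likeness the 3 nearest records by log2 fold change. Members were grouped at a locus within 200 nt, and starts were converted to count from 1. The members and lists were chosen with earlier results of these data known. The alternatives covered scaling, thresholds, read minimum, shared sequences and a pseudocount of 1 read. The search for target sites was not run, as no transcript sequences were used here.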

Additional observations from a re-analysis of the deposited data

How the results depend on the processing

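The number of members called by p under 0.001 and a fold change over 2, which was 0, became 1 under 8 alternatives. The called member was bdi-miR162 with the sum of the deposited counts, the median of ratios or the trimmed mean of log2 ratios as scaling, with a fold threshold of 1.5 and with no fold threshold (1 in each). It was aau-miR168 with p under 0.01, p under 0.05 and adjusted p under 0.05 (1 in each). The number was still 0 with a fold threshold of 3, with a minimum of 10 reads and with each sequence counted once. Over all 169 records, 21 were called. This became 18, 19 and 20 under the 3 scalings, 27 with a fold threshold of 1.5, 10 with one of 3 and 34 with none. With p under 0.01, p under 0.05 and adjusted p under 0.05 it became 25, 29 and 27. With each sequence counted once, which leaves fewer records, it became 16, because some called records share a sequence. The fold change HT/HS of the miR162 sum, 0.522, became 0.400 with the sum of deposited counts, 0.419 with the median of ratios and 0.441 with the trimmed mean, past the fold threshold in each. These scalings shift every log2 fold change by -0.38, -0.32 and -0.24 and change the split of called records from 14 higher and 7 lower in HT to 9 and 9, 10 and 9, and 12 and 8. No fold change of a member crossed 1. No library could be left out, as each genotype has 1, and depth limits miR168 and miR403, with 16 to 57 reads per counted record and library. No paired analysis was possible because each genotype has 1 library.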

Other observations

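A run of at least 20 nt in the reverse complement of a record with the same number was found for 9 of the 169 counted records (5.33%). Beside aau-miR168 (37 reads in HT and 16 in HS) these were records of miR160 (ath-miR160a, gma-miR160b and ptc-miR160g) and of miR171 (ath-miR171a, ptc-miR171c, ptc-miR171k, aly-miR171b* and aly-miR171c*). Of these, ptc-miR171c was counted 48 times in HT and 35 times in HS, ath-miR171a 39 and 44 times, and ath-miR160a 33 and 24 times. This was found after the values were seen, and whether the reads come from the strand opposite to the precursor was not tested.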
